A study of Mus musculus with 8 samples.

Results

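The integrin genes described here are 10 genes for leukocyte and widely expressed integrin chains, among them Itgam, which encodes CD11b. Integrins are adhesion receptors made of an alpha and a beta chain. The CD11 alpha chains (Itgam, Itgax, Itgal and Itgad, for CD11b, CD11c, CD11a and CD11d) all pair with the CD18 chain of Itgb2 on white blood cells, where they bind ICAM proteins, fibrinogen or complement fragments. CD11b marks granulocytes, monocytes and macrophages and appears as myeloid cells mature. PU.1, the ETS-family factor encoded by Spi1, is a regulator of myeloid differentiation whose sites carry the core GGAA, and the human CD11b promoter is known to bind it. The remaining 5 genes encode integrin chains other than CD11 and CD18: Itga4 (CD49d), Itgb1 (CD29), Itgb3 (CD61), Itgav (CD51) and Itgb7.

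Accessible chromatin was mapped by ATAC-seq, in which a transposase cuts and tags open DNA, in AML246, a mouse acute myeloid leukaemia line grown with IL-3. The 8 libraries, each of 50000 sorted viable cells, were untreated cells of day 0, cells after 4, 8 and 12 days of doxycycline (Dox) at 0.1 µg/mL, a CD11b-high sort of the day-12 cells, and cells 4, 8 and 12 days after Dox was withdrawn at day 12. Per the labels, PU.1 was restored while Dox was present and was knocked down otherwise, so that day-0 cells and cells off Dox are PU.1-low. The sources used here do not name the construct that Dox controls. All libraries other than the sort were of total viable cells. Every group was 1 library of 1 line, so no spread between replicates exists and differences are described without a test or p-value.

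The data are lists of peak summits called in each library, 31957 to 51175 per library, each with a score that the authors' peak caller gave it. Summits were widened by 150 bp to each side and merged over the 8 lists, and a region was called open in a library that had a summit in it. Of 68800 regions, 70 had 1 of the 10 integrin genes as their nearest protein-coding gene, measured from the region's midpoint to the gene's span within 100 kb on mm10. All 10 genes had at least 1 region. Not open means that no summit was called, not that the chromatin was shown to be closed, and scores belong to their own list, so that values set side by side below show no change by themselves. For the 18733 regions open in all 8 libraries, the score was therefore also given as its percentile among these regions in the same library. The lowest scores lay near 1.3, the −log10 of 0.05.

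Marker genes could not check the cell type, because an open region near a gene does not show that it is expressed. All 3 general blood cell genes (Ptprc, Cd53 and Coro1a) had an open region in every library, but so did all 3 genes of non-blood tissues (Epcam, Col1a1 and Cdh5). Of 5 myeloid genes 3 to 4 had one, of 5 macrophage genes 3 to 5 and of 5 neutrophil genes 3 to 5. Of 4 mast cell and basophil genes 3 to 4 had one, of 3 erythroid genes 2 to 3, of 3 T cell genes 1 to 2 and of 3 B cell genes 0 to 2. Elane, Cd79a and Cd4 had no region at all.

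The promoter sequences below are shown because the CD11b promoter was called in 1 library, the CD11c promoter in none, and those of Itga4, Itgb1 and Itgav in all 8. They are the 250 bases before the transcription start in RefSeq's GRCm38.p6, the build also called mm10, 5′ to 3′ on the plus strand, and capitals mark the ETS core GGAA or its reverse complement TTCC.
Itgam, chr7:128062390-128062639: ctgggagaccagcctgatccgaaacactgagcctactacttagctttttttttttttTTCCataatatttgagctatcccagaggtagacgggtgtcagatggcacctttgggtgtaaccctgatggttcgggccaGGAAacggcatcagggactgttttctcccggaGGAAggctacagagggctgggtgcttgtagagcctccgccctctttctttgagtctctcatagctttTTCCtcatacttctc
Itgax, chr7:128129300-128129549: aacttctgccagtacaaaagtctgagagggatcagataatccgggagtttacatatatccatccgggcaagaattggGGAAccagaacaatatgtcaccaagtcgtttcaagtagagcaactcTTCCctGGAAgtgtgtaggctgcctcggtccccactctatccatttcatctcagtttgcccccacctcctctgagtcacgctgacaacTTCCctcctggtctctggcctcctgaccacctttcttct
Itga4, chr2:79255176-79255425: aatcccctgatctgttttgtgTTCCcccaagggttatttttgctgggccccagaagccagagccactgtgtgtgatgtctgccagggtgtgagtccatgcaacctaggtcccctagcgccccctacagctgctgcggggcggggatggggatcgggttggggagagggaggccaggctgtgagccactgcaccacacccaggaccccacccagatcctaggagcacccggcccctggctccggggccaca
Itgb1, chr8:128685404-128685653: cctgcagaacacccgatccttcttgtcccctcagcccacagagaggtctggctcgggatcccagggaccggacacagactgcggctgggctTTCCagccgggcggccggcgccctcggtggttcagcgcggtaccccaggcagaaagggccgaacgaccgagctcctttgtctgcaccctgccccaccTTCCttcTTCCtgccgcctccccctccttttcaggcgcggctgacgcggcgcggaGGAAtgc
Itgav, chr2:83724147-83724396: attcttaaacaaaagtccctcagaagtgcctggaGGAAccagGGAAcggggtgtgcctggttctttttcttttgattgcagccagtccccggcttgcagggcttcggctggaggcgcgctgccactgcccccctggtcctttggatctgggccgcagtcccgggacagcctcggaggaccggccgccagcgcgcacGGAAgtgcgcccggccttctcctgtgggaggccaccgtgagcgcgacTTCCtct

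The Itgam promoter held 4 ETS cores, as did those of Itgax, Itgb1 and Itgav, and the Itga4 promoter held 1. Over the same 250 bases, such a core stood in 93.4% of the 32851 promoters of the table, so that it sets none of them apart. The longer letters GAGGAAGT, a form that PU.1 prefers and that contains the core, stood in 2.44% of all promoters and among the 6 integrin promoters of the table only in that of Itgav. There the match was on the reverse strand (ACTTCCTC), from base -9 to base -2 before the start. The AP-1 letters TGANTCA were matched once, in the Itgax promoter from -56 to -50, against 6.75% of all promoters. The RUNX letters TGTGGT were matched in the Itga4 promoter on the reverse strand, from -60 to -55, against 14.0% of all promoters. The Sp1 and KLF letters GGGCGG were matched in Itgam, Itga4 and Itgb1, against 32.7% of all promoters, while the C/EBP letters TTGCNNCAA had no match in these 6 and stood in 1.74% of all. All motifs were searched on both strands.

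The number of open integrin regions was highest in the 2 longest lists, those of 4 days off and day 8, and lowest in the shortest, that of 12 days off. The day-0 list held 28, that of day 4 held 32 and that of day 8 held 45. In the day-12 libraries it was 34 in CD11b-high and 33 in total cells. After withdrawal it was 53, 34 and 22 at the 3 times off Dox. Per 10000 open regions of the same library this came to 7.91 (95% exact Clopper-Pearson interval 5.26 to 11.4) at day 0 and 9.28 (6.35 to 13.1) at day 4. At day 8 it was 9.80 (7.15 to 13.1), and at day 12 it was 9.68 (6.70 to 13.5) in CD11b-high and 9.67 (6.66 to 13.6) in total cells. After withdrawal the values were 10.6 (7.94 to 13.9), 8.37 (5.80 to 11.7) and 7.06 (4.42 to 10.7). The lowest value stood at 12 days off and the highest at 4 days off, and all 8 intervals overlapped. These intervals cover counting error only.

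**Figure D1:**
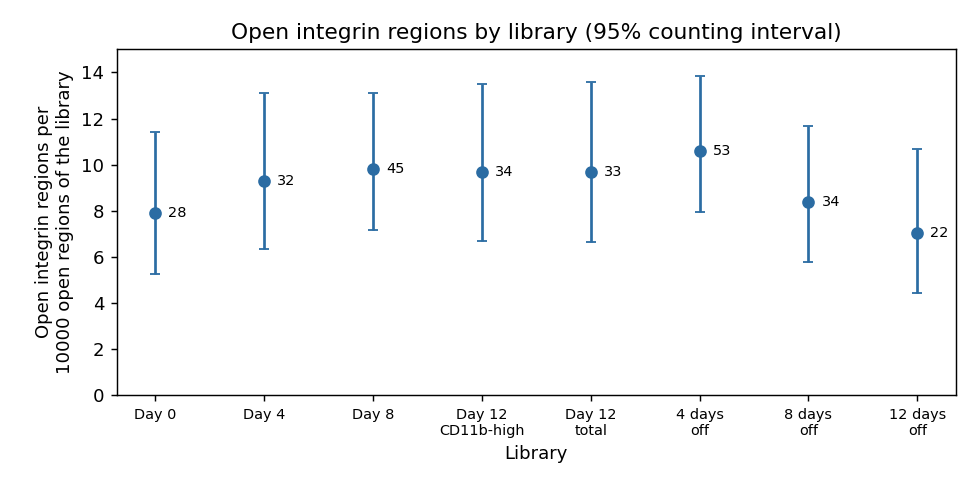
Open integrin regions per 10000 open regions of each library (points), with exact 95% intervals for counting error (bars) and the number of open integrin regions beside each point. Values run from 7.06 at 12 days off to 10.6 at 4 days off, and the intervals overlap.

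Most integrin regions lay inside their gene. Of the 70, 52 had their midpoint inside the gene's span, which is 74.3% (62.4 to 84.0) against 58.7% of all 64638 regions with a gene. Within 1 kb of a gene end lay 11, or 15.7% (8.11 to 26.4), against 22.6% of all. Which regions fall in exons or introns was not analysed here. In all 8 libraries 13 of the 70 were open, or 18.6%, against 27.2% of all regions, and in a single library 16, or 22.9%, against 23.5%. The farthest region, at Itga4, lay 74419 bp from its gene, and limits of 80 and 120 kb gave the same 70 regions as 100 kb.

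**Figure D2:**
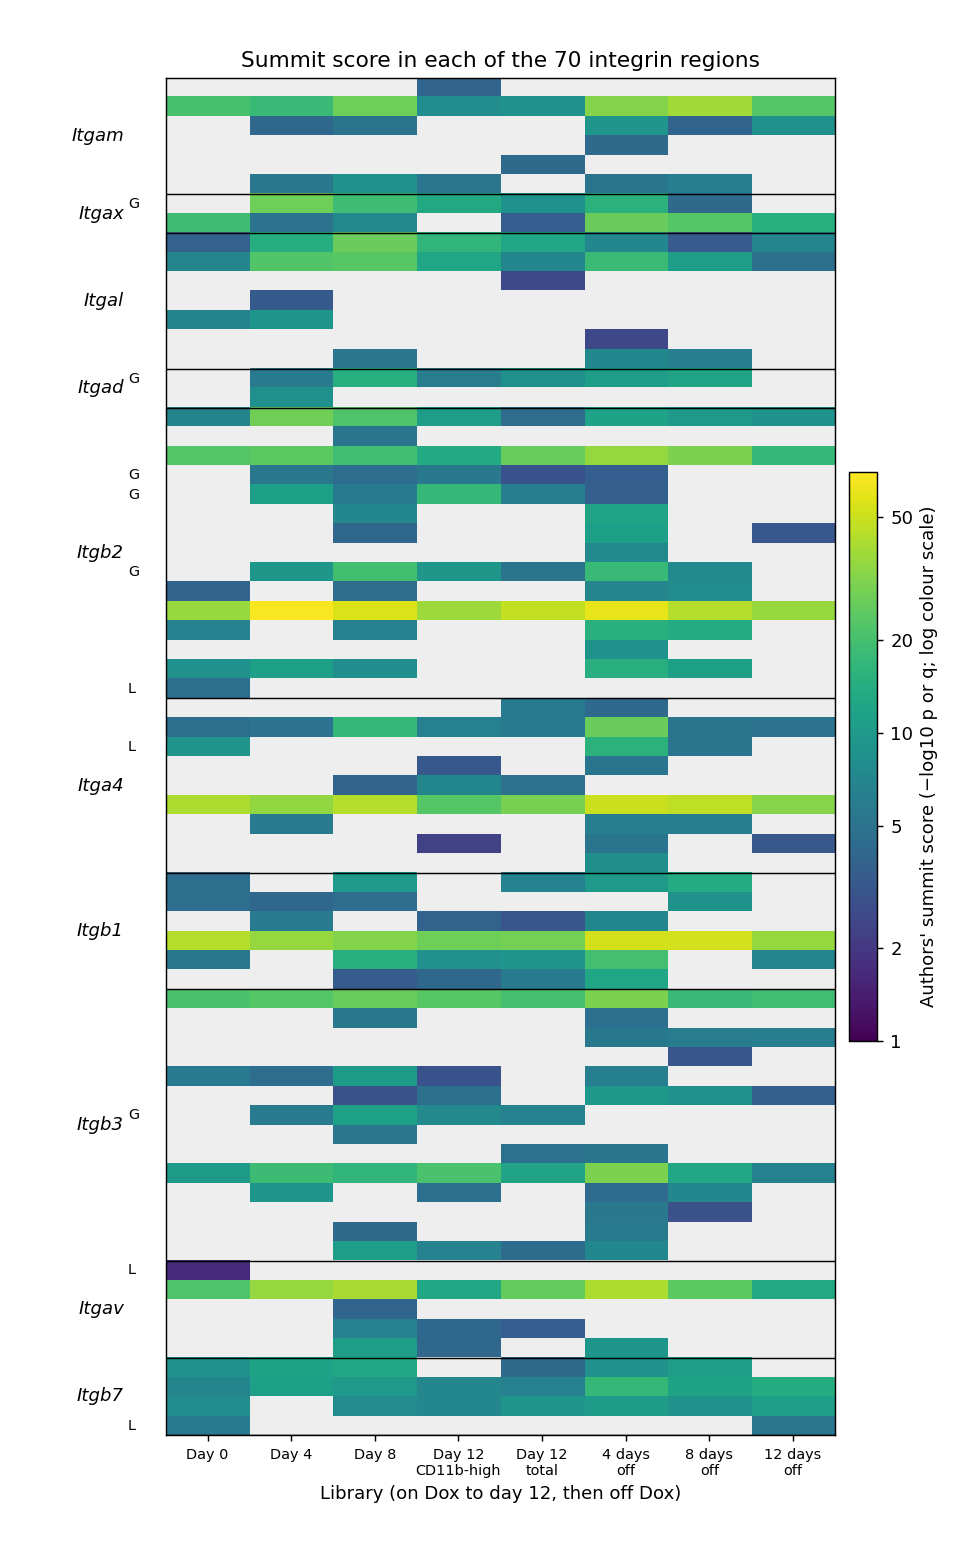
Score of the highest summit in each of the 70 regions (rows, by gene and in order along the chromosome) in each library (columns). Grey marks a region with no summit, G the 6 regions gained and L the 4 regions lost on Dox. Most of the 70 regions are open in only some libraries, with 13 open in all 8.

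The first comparison asked how the integrin regions differed between libraries on Dox and day 0. Among the 70 regions, 6 were gained, that is without a summit at day 0 but with one on each of days 4, 8 and 12, and 4 were lost, with a summit at day 0 and on none of these days. The gained regions were 3 at Itgb2 and 1 each at Itgax, Itgad and Itgb3, so 5 of the 6 belonged to the CD11 and CD18 genes, which hold 32 of the 70 regions. Gained regions made up 8.57% (3.21 to 17.7) of integrin regions against 4.94% of all regions, and lost regions 5.71% (1.58 to 14.0) against 5.62%, so both shares had the background within their intervals. With day 12 alone set against day 0, 15 integrin regions were open only at day 12 (13.8% of all regions) and 10 only at day 0 (15.7% of all). Of the 15, 7 lay at the CD11 and CD18 genes and 8 at the other 5, and the 10 split into 5 and 5. At a score of at least 10, 1 region was gained (3.85% of all regions), at Itgal, and none at Itgb2, Itgax, Itgad or Itgb3. Without that limit this Itgal region, chr7:127287943-127288363, was open in all 8 libraries, with a score of 3.81 at day 0.

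At Itgax, which encodes CD11c, a marker of dendritic cells and some macrophages, the gained region chr7:128133658-128133989 lay inside the gene, 4273 bp after the transcription start. Its score was 27.5 at day 4, 18.7 at day 8, 13.2 in CD11b-high and 8.86 in total cells of day 12, followed by 15.4 and 4.35 at 4 and 8 days off. No summit was called there at day 0 or at 12 days off, where the nearest one lay 25015 and 25054 bp from its midpoint. The other region assigned to Itgax, chr7:128158682-128159299, lay 8333 bp beyond the gene and 14943 bp from Itgad. It had scores of 18.8 at day 0, 5.08 at day 4, 7.43 at day 8 and 3.57 in total cells of day 12, followed by 26.4, 22.8 and 14.5 at 4, 8 and 12 days off. Only the CD11b-high library lacked it, with its nearest summit 21269 bp from the midpoint.

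Itgad, which encodes the less studied CD11d, had 2 regions, neither open at day 0. The gained one, chr7:128180026-128180429, lay inside the gene with scores of 5.68 at day 4, 14.6 at day 8, 5.93 in CD11b-high and 8.37 in total cells of day 12. It was still open at 4 and 8 days off, at 10.7 and 12.0, and not at 12 days off. The other, chr7:128187648-128187948, was open at day 4 only, at 8.39.

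Itgam itself had no gained and no lost region among its 6. Its strongest region, chr7:128050689-128051147, lay 11722 bp before the start and was open in every library. The scores there were 20.2 at day 0, 17.9 at day 4, 27.3 at day 8, 8.03 in CD11b-high and 8.93 in total cells of day 12, followed by 31.9, 39.1 and 22.7 at 4, 8 and 12 days off. In percentile, too, the 2 day-12 libraries were lowest, at 17.3 in CD11b-high and 22.5 in total cells, and the next gene, Trim72, lay 39525 bp away. A region inside the gene, chr7:128065625-128065981, lay 3163 bp after the start. It was open at day 4 (5.50), day 8 (8.92), in CD11b-high cells (5.27) and at 4 (5.21) and 8 days off (6.11), and not at day 0, in total cells of day 12 or at 12 days off. Between these lay chr7:128058422-128059073, 3893 bp before the start, which was not open at day 0 or in either day-12 library and was open at day 4 (4.23), day 8 (5.15) and 4 (9.12), 8 (3.96) and 12 days off (8.38). Its neighbour chr7:128059139-128059439 was open at 4 days off only, at 4.33.

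The start of Itgam was called once in the 8 lists. The region chr7:128062490-128062790 had its midpoint on the start itself and was open in total cells of day 12, with a score of 4.36. In the other 7 libraries the nearest summit lay 3135 to 11685 bp from it. For comparison, between 32.0% and 34.7% of the 32851 promoter windows of the table, of 300 bases each, overlapped an open region in a given library, 28.6% did so in all 8, and 0.116%, or 38 windows, did so in total cells of day 12 alone. The Itgax window overlapped none, as did 62.7% of all windows.

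**Figure D3:**
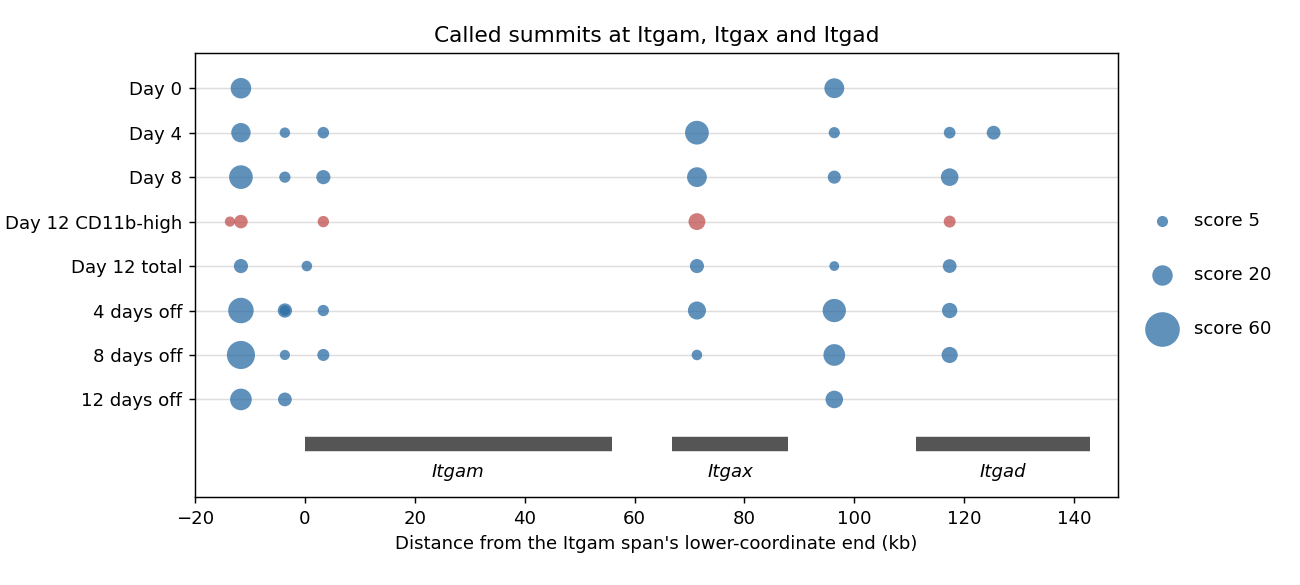
Called summits at the neighbouring genes Itgam, Itgax and Itgad in each library (rows), with circle area growing with the score and gene spans as bars, against the distance from the start of Itgam in kb. The Itgax and Itgad summits near 71.2 and 117.6 kb are missing at day 0 and at 12 days off, and the summit at the start of Itgam appears in total cells of day 12 only.

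Itgal, which encodes the CD11a chain of the ICAM receptor LFA-1, had 7 regions. Those 2 open in all 8 libraries lay at the lower-coordinate end of the gene, chr7:127296016-127296450, and 7986 bp outside it, chr7:127287943-127288363. The region at the gene end scored 6.86 at day 0, 21.9 at day 4, 23.3 at day 8, 12.1 in CD11b-high and 7.02 in total cells of day 12, followed by 18.1, 10.8 and 4.78 at 4, 8 and 12 days off. Outside the gene the scores were 3.81 at day 0, 14.2 at day 4, 26.7 at day 8, 16.3 in CD11b-high and 12.3 in total cells of day 12, followed by 7.23, 3.41 and 6.93 off Dox. In percentile both ranked highest at day 8, but only narrowly. The gene end stood at 42.4, beside 42.2 at day 4, and the outer region at 50.7, beside 50.2 in CD11b-high cells. The lowest rank was that of 12 days off at the gene end, at 3.83, and that of 8 days off outside the gene, at 0.0667. Inside the gene, chr7:127308898-127309199 was open at day 0 (6.67) and day 4 (9.35) and in no later library. The remaining 4 were open in 1 to 3 libraries with scores of 2.49 to 7.23.

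Itgb2, for the CD18 chain shared by all CD11 integrins, had the most regions, 15, and the highest score of any integrin region. That region, chr10:77550989-77551318, inside the gene, scored 36.4 at day 0, 67.2 at day 4, 56.2 at day 8, 37.7 in CD11b-high and 47.1 in total cells of day 12, followed by 59.4, 43.9 and 36.6 off Dox. As a percentile in its own list the region ranked lowest at day 0, at 67.5, and between 82.5 and 97.0 in the other 7 libraries. The gained regions of Itgb2 were chr10:77531666-77532242, chr10:77536861-77537175 and chr10:77544907-77545315, all inside the gene. The first of them scored 5.46 at day 4, 4.60 at day 8, 5.53 in CD11b-high and 2.90 in total cells of day 12, and 3.58 at 4 days off. The second scored 10.98 at day 4, 5.68 at day 8, 17.1 in CD11b-high and 6.16 in total cells of day 12, and 3.65 at 4 days off. The third scored 9.54 at day 4, 19.5 at day 8, 9.50 in CD11b-high and 5.12 in total cells of day 12, followed by 17.5 and 7.65 at 4 and 8 days off. None of them was open at day 0 or at 12 days off. Where lists of equal length were used, Itgb2 had 1 gained region in place of 3.

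**Figure D4:**
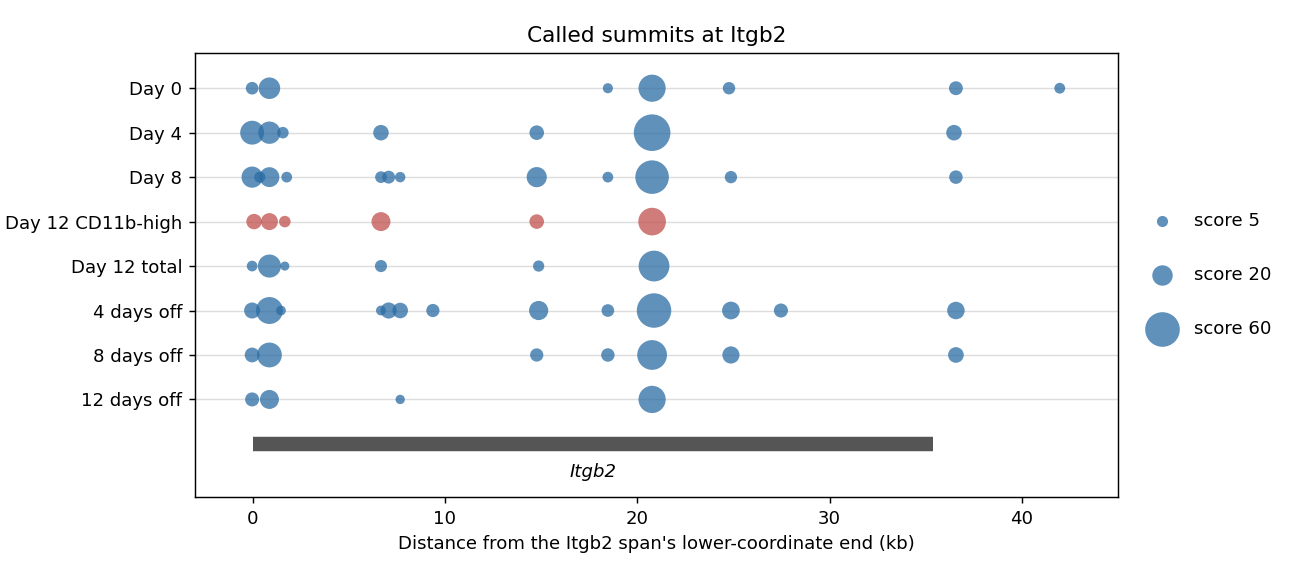
Called summits at Itgb2 in each library (rows), with circle area growing with the score and the gene span as a bar, against the distance from its lower-coordinate end in kb. The summits near 6.7 and 14.8 kb inside the gene are missing at day 0 and at 12 days off, and that near 6.7 kb also at 8 days off. The summit near 20.8 kb is the strongest in every library.

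A further 3 Itgb2 regions were open at day 0 and at 4 and 8 days off but in neither day-12 library. Outside the gene by 1161 bp, chr10:77566696-77567043 was open at day 0 (8.53), day 4 (11.1), day 8 (7.99) and 4 (14.4) and 8 days off (11.2), and not in either day-12 library or at 12 days off. Inside it, chr10:77554992-77555337 was open at day 0 (6.56), day 8 (6.42) and 4 (14.8) and 8 days off (13.8), and chr10:77548619-77548964 in the same 4 libraries at 3.89, 4.58, 6.87 and 7.90. The lost region of Itgb2, chr10:77572188-77572488, was open at day 0 alone, at 4.66. Of the 15 regions, 13 were open at 4 days off and 12 at day 8, the libraries with the longest lists, against 6 in each day-12 library and 4 at 12 days off.

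At the CD11 and CD18 genes, gained regions made up 15.6% (5.28 to 32.8) and lost regions 3.12% (0.0791 to 16.2) of the 32. At the other 5 genes, 1 of 38 regions was gained, or 2.63% (0.0666 to 13.8), and 3 were lost, or 7.89% (1.66 to 21.4), beside 4.94% and 5.62% of all regions. The intervals of both families overlapped, and their difference was not tested. With lists of equal length 4 regions were gained at the CD11 and CD18 genes and 2 at the other 5, and 2 were lost at each. With day 12 alone against day 0, the 2 families had 7 and 8 gained and 5 and 5 lost. The gained region of the other 5 genes lay inside Itgb3, which encodes the CD61 chain of the platelet fibrinogen receptor and of an alpha-V integrin. At chr11:104630277-104630598 the scores were 5.88 at day 4, 11.5 at day 8, 7.34 in CD11b-high and 6.54 in total cells of day 12, with no summit at day 0 or at any time off. The lower-coordinate end of the Itgb3 span itself, chr11:104607901-104608296, was open in every library at 17.5 to 30.5. A second region inside the gene, chr11:104647467-104647831, was also open in all 8. It scored 10.2 at day 0, 18.4 at day 4, 16.4 at day 8, 20.8 in CD11b-high and 12.0 in total cells of day 12, followed by 30.4, 12.8 and 6.45 off Dox. Of its 14 regions, chr11:104611637-104611977 was open only after withdrawal, at 5.58, 6.03 and 6.17 at 4, 8 and 12 days off. The region chr11:104679959-104680550 lay 9778 bp outside the gene and nearly as close to the next gene, Efcab13, at 10580 bp. It was open at day 8 (10.8), in CD11b-high (6.55) and total cells of day 12 (4.52) and at 4 days off (7.23).

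Itga4 encodes the alpha chain that pairs with the chains of Itgb1 and Itgb7 to bind VCAM1 and MAdCAM1. Its start, chr2:79255253-79255971, was open in every library, with 41.8 at day 0, 35.0 at day 4, 43.7 at day 8, 22.7 in CD11b-high and 29.2 in total cells of day 12, followed by 50.2, 46.3 and 32.4 off Dox. As a percentile in its own list the start ranked lowest at day 4, at 59.98, and stood at 67.2 in CD11b-high and 82.0 in total cells of day 12. The adjoining region chr2:79254672-79255042, 569 bp before the start, was open at day 8 (3.94), in CD11b-high (7.004) and total cells of day 12 (4.92) and in no other library. A lost region, chr2:79201690-79202021, 53571 bp away, was open at day 0 (9.12) and again at 4 (15.3) and 8 days off (5.17).

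Itgb1 encodes the beta chain shared by most integrins for matrix proteins. Its start, chr8:128685587-128685985, was open throughout, at 43.7 at day 0, 36.0 at day 4, 32.1 at day 8, 27.5 in CD11b-high and 29.0 in total cells of day 12, followed by 53.4, 52.0 and 35.5 off Dox. It had no gained or lost region among 6. A region inside the gene, chr8:128709292-128709626, was missing at day 4 and at 8 days off only, and scored 19.7 at 4 days off.

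Itgav encodes the alpha-V chain, which binds vitronectin with the chain of Itgb3. Its start, chr2:83724237-83724580, was open throughout, at 21.7 at day 0, 35.5 at day 4, 40.0 at day 8, 12.6 in CD11b-high and 25.8 in total cells of day 12, followed by 41.7, 24.1 and 12.97 off Dox. The CD11b-high library and that of 12 days off were also lowest in percentile, at 36.9 and 36.7. The lost region of Itgav, chr2:83723873-83724173, scored 1.65 at day 0, the lowest of any integrin region, and all other libraries had a summit 364 to 407 bp from its midpoint.

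Itgb7, whose chain with that of Itga4 directs lymphocytes to the gut, had 4 regions and was the only gene of the 10 with all its regions open at day 0. Its promoter window of the table, on the minus strand, overlapped the lost region chr15:102231773-102232084, which was open at day 0 (5.73) and at 12 days off (5.27) alone. In 5 of the 6 libraries between, a summit lay 808 to 863 bp from its midpoint. When a summit within 1 kb counted as open, 2 of the 4 lost regions remained, those of Itga4 and Itgb2.

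The second comparison set the CD11b-high sort of day 12 beside total cells of day 12. The sort was made on the protein that Itgam encodes. Of the 70 regions, 8 were open in CD11b-high cells only, or 11.4% (5.07 to 21.3) against 10.7% of all regions, and 7 in total cells only, or 10.0% (4.12 to 19.5) against 9.20%. These shares lay close to the background. All scored low: the 8 between 2.32 and 5.27 and the 7 between 2.56 and 6.54.

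CD11b-high cells alone held 2 Itgam regions, the one 3163 bp inside the gene described above and chr7:128048754-128049054, 13736 bp before the start, which was open in no other library and scored 4.01. The others were 3 at Itgb3 (2.92, 4.76 and 4.70), 2 at Itga4 (3.25 and 2.32) and 1 at Itgav (4.24). Total cells alone held the start of Itgam (4.36), the region beyond Itgax (3.57), and 1 region each at Itgal (2.56), Itga4 (5.69), Itgb1 (6.54), Itgb3 (4.87) and Itgb7 (4.36). Itgb2 and Itgad had the same regions open in both. With summits scoring at least 5, 5 integrin regions were open in CD11b-high cells only, 2 of them at Itgb2. In total cells only there were 3, of which 2 lay at Itgb1 and 0 at Itgb2. With at least 10 the counts were 4, again 2 at Itgb2, and 0. A region called in only 1 library at these limits may hold a weaker summit in the other. The share over all regions was not counted there. In total cells, a region open in a few cells and one weakly open in many cannot be told apart. Open regions near marker genes of myeloid cell types were counted in the same libraries, and their part in these differences was not tested. The 5 macrophage genes had 8 in CD11b-high and 8 in total cells, the 5 neutrophil genes 6 and 8, the 5 myeloid genes 7 and 8, and the 4 mast cell and basophil genes 10 and 8.

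Scores were compared by percentile over the 13 integrin regions open in all 8 libraries. Between CD11b-high and total cells of day 12, 3 of the 13 ranked over 20 points higher in CD11b-high cells (8.90% of all such regions) and 2 over 20 points lower (9.0% of all). As shares of the 13 these were 23.1% (5.04 to 53.8) and 15.4% (1.92 to 45.4), with the background within both intervals. The 3 were the lower-coordinate end of Itgb2 at chr10:77530110-77530544, the inner Itgb3 region and the lower-coordinate end of Itgal. Their percentiles were 29.4 in CD11b-high and 3.36 in total cells at Itgb2, 62.6 and 36.2 at Itgb3, and 35.0 and 14.1 at Itgal. The 2 were the start of Itgav, with 36.9 in CD11b-high and 76.3 in total cells, and chr10:77531008-77531362 inside Itgb2, with 39.9 and 76.4. The neighbouring Itgb2 regions thus differed between the libraries in opposite directions, while the strong Itgb2 region stood at 89.9 in CD11b-high and 97.0 in total cells.

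The Itgam region 11722 bp before the start had percentile 17.3 in CD11b-high and 22.5 in total cells of day 12. Over all 13 the median difference was 2.20 points, with 7 higher and 6 lower in CD11b-high cells, against a median of -0.0160 over all 18733. Under the other settings this median lay between -18.9 and 2.20, so its direction did not hold.

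**Figure D5:**
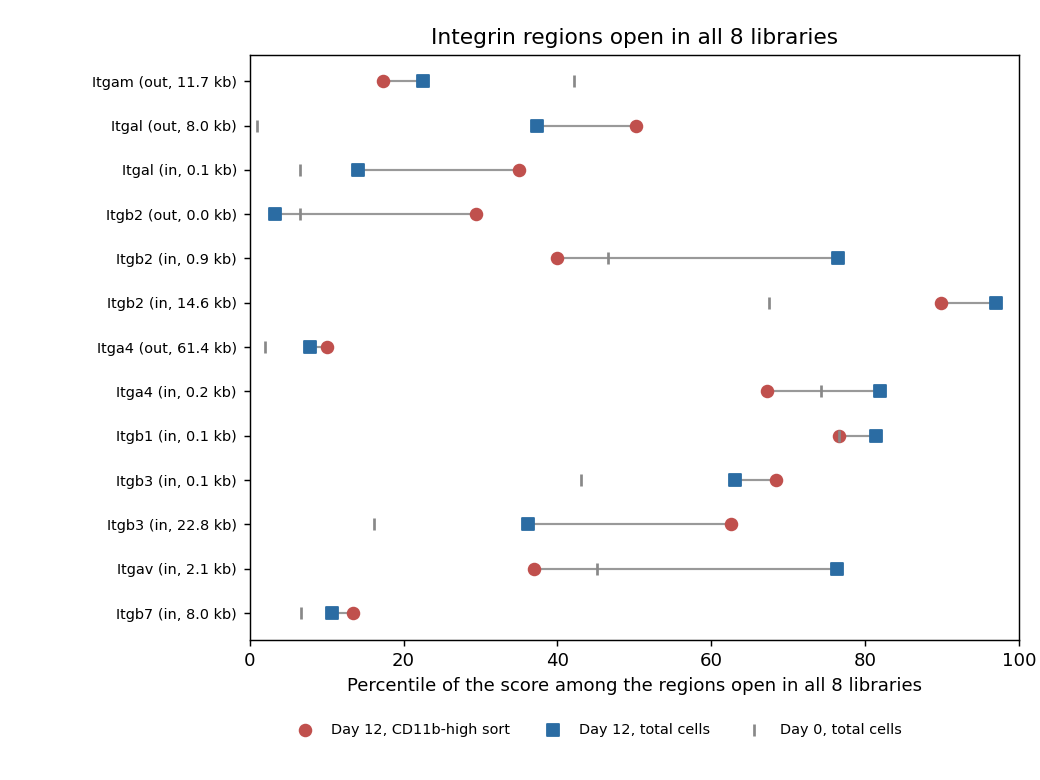
Percentile of the score, among the 18733 regions open in all 8 libraries, of the 13 integrin regions among them (rows, with place inside or outside the gene and distance to its nearer end) in CD11b-high cells (circles), total cells of day 12 (squares) and day 0 (ticks). The start of Itgav and an Itgb2 region rank far lower in CD11b-high than in total cells, and the lower-coordinate end of Itgb2 ranks higher.

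Day 12 was set beside day 0 in the same way. In total cells of day 12, 5 of the 13 ranked over 20 points higher than at day 0 (15.7% of all such regions) and 0 over 20 points lower (16.5% of all). The share of the 5, 38.5% (13.9 to 68.4), had the background within its interval, and for the 0 of 13 the interval reached 24.7%. The 5 were the outer Itgal region, with 37.3 at day 12 and 0.977 at day 0, the start of Itgav (76.3 and 45.2), 2 regions inside Itgb2 (76.4 and 46.6, 97.0 and 67.5) and the inner Itgb3 region (36.2 and 16.2). The median difference was 7.75 points, with 11 of 13 higher, against -0.697 over all, and it was not recomputed under the other settings. The Itgam region ranked lower at day 12, at 22.5 against 42.1 at day 0.

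The third comparison asked what became of integrin regions when Dox was withdrawn. All 6 gained regions were open in CD11b-high cells (84.0% of all gained regions), 5 were open at 4 days off (74.8% of all), 3 at 8 days off (49.5% of all) and 0 at 12 days off (26.2% of all). With only 6 regions the 0 carries an interval of up to 45.9%. The 5 open at 4 days off were those of Itgax, Itgad and Itgb2, and the 3 at 8 days off those of Itgax and Itgad and 1 of Itgb2. The Itgb3 region was already not open at 4 days off. Of the 4 lost regions 1, at the Itgb7 promoter window, was open at 12 days off (25.6% of all lost regions).

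At 12 days off, 6 integrin regions were open that were not open in total cells of day 12 (11.2% of all regions), while 17 of day 12 were no longer open (15.4% of all). The share of the 17, 24.3% (14.8 to 36.0), had the background within its interval. Of the 13 regions open throughout, 2 ranked over 20 points higher at 12 days off than at day 12 (14.7% of all such regions) and 4 over 20 points lower (14.5% of all). As shares of the 13 these were 15.4% (1.92 to 45.4) and 30.8% (9.09 to 61.4), with the background within both intervals. Higher were the Itgam region 11722 bp before the start, at 64.5 at 12 days off and 22.5 at day 12, and an inner Itgb7 region, chr15:102225148-102225671, at 40.2 and 10.7. Lower were the start of Itgav (36.7 at 12 days off and 76.3 at day 12), the inner Itgb3 region (10.2 and 36.2), the outer Itgal region (12.4 and 37.3) and an Itgb2 region (50.7 and 76.4). The Itgam region reached its highest percentile, 76.2, at 8 days off, and stood at 50.2 at 4 days off.

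By the share of its regions open in each library, Itgam was most like Grb2, Evl, Gm5148, Dennd5a and Gcnt2 among 8665 genes with at least 3 regions. The measure was the sum over the 8 libraries of the absolute difference in that share, which was 0.321 for Grb2, 0.333 for Evl, 0.409 for Gm5148 and 0.417 for Dennd5a and Gcnt2, against a median of 1.5 over all genes. Itgam had 16.7% of its 6 regions open at day 0 and 33.3% at 12 days off, and between 33.3% and 66.7% in the libraries between. Among the 7 other integrin genes with at least 3 regions, Itgb3 was nearest with 0.524, then Itgal with 0.929, Itga4 with 0.944 and Itgb2 with 1.10. Itgb7 was farthest, at 2.25. With 6 regions the share moves in large steps, and the 8 libraries share their list lengths among all genes.

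The genes that work with these integrins were counted from 3 lists. The 16 other integrin genes held 3 gained and 6 lost regions among 82, beside the 4.94% and 5.62% of all regions. Their shares were 3.66% (0.761 to 10.3) and 7.32% (2.73 to 15.2). Of them Itga11, a collagen receptor chain, had 2 lost, Itgb5 had 1 gained and 2 lost, Itga2 had 1 gained, Itgb4 had 1 lost and Itga9 had 1 of each. In CD11b-high cells only, 11 of the 82 were open, or 13.4% (6.89 to 22.7) against 10.7% of all regions, and in total cells only, 8, or 9.76% (4.31 to 18.3) against 9.20%. The 30 genes for adapters and signalling kinases held 21 gained regions among 244, or 8.61% (5.41 to 12.9) against 4.94% of all regions. They held 17 lost, or 6.97% (4.11 to 10.9) against 5.62%. The gained share lay above the background by an interval that covers counting error only, and this was not tested. That interval counts regions of the same gene as separate, and Syk alone held 4 of the 21. The list was also chosen with earlier results of these data known. On balance 11 of these 30 genes gained, 8 lost and 11 stood at 0. There the kinase gene Syk had 4 gained and 0 lost, the Rap GTPase gene Rap1a and the adapter gene Skap2 each had 0 gained and 2 lost, and the kinase gene Ptk2b had 3 gained and 2 lost. Rap1b, a second Rap GTPase gene, and Lyn, a Src-family kinase gene, each had 2 gained and 1 lost. In CD11b-high cells only, 26 of the 244 were open, or 10.7% (7.08 to 15.2), the share over all regions being 10.7% too. In total cells only, 19 were open, or 7.79% (4.75 to 11.9) against 9.20%.

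The 18 ligand genes held 1 gained region among 56, at the fibronectin gene Fn1, or 1.79% (0.0452 to 9.55) against 4.94% of all regions. They held 3 lost, at the osteopontin gene Spp1, at Thy1 and at the VCAM1 gene Vcam1, or 5.36% (1.12 to 14.9) against 5.62%. In CD11b-high cells only, 12 of the 56 were open, or 21.4% (11.6 to 34.4) against 10.7% of all regions, and in total cells only, 4, or 7.14% (1.98 to 17.3) against 9.20%. No comparison of these lists with each other was tested.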

How the data were processed

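ATAC-seq peak summits of 8 libraries of AML246 cells were used, 1 library per group, grouped by the labels' treatment and sort. Peak calling involved MACS2, alongside Picard 2.14.0, on the build mm10, per the submitters' processing notes. The sources used here name no aligner, MACS2 version or read depth. The deposited score of a summit was taken for a −log10 significance (a p-value or a q-value), since the lowest score of each list lay between 1.30 and 1.39. It is not normalized between libraries and grows with depth, as does the number of summits. The labels' protocol also mentions ChIP, but the title, design text and library kit name ATAC-seq. Between 85 and 121 summits per library on contigs other than chromosomes 1 to 19, X and Y were left out.

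Summits were widened by 150 bp to each side and merged, and each region was given to the nearest of 21887 protein-coding gene spans of RefSeq's GRCm38.p6 table, from its midpoint and within 100 kb, with ties to the first gene by name. The highest summit of a library stood for it in a region. Promoters were those of the RefSeq table, which held 6 of the 10 genes. It held no strand for Itgal, Itgad, Itgb2 and Itgb3, so the ends of these genes are named by coordinate and may be their starts. Shares carry exact Clopper-Pearson 95% intervals (scipy 1.17.1, Python 3.11.15, pandas 2.3.3), which cover counting error only. The steps were tested on simulated summits with planted regions, genes and changes.

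Genes were named by a rule: all 10 members, up to 6 genes of each list with the largest absolute number of gained minus lost regions, and the 5 genes most like Itgam. The members, lists and rules were chosen with earlier results of these data known. Alternatives covered the width, a score limit, lists of equal length, the gene distance and nearby summits.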

Additional observations from a re-analysis of the deposited data

How the results depend on the processing

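No paired analysis was possible because each group holds 1 library, and for the same reason no library could be left out as a replicate. Of 75 values recomputed, 60 stayed within 1.5 times the value reported or, for the median percentile difference, within its interval, and 15 did not. With summits scoring at least 5, 2 of 60 integrin regions were lost, against 5.03% of all regions. There 5 were open in CD11b-high cells only, 3 in total cells only and 9 at day 12 and not at 12 days off. For calls other than gained and lost, no share over all regions was counted under a changed setting. At a score of at least 10, 32 integrin regions were left, of which 1 was gained and 1 lost, against 3.85% and 5.08% of all regions. At that limit 4 were open in CD11b-high cells only, 2 at Itgb2 and 1 each at Itgax and Itgal. In total cells only 0 were open, and 2 were open at day 12 and not at 12 days off. Itgam then had 0 regions open in CD11b-high cells, and the median percentile difference was -18.9 points. When a summit within 1 kb counted as open, 2 of 70 regions were lost, against 4.72% of all regions. In a setting chosen after seeing the data, with day 12 alone against day 0, 15 of 70 were gained and 10 lost (13.8% and 15.7% of all regions). Without the day-8 library, also chosen after seeing the data, 7 of 70 were gained and 6 lost (5.34% and 8.92% of all regions). With lists of equal length 6 of 52 were gained and 4 lost, against 5.28% and 7.45% of all regions. These 6, however, were 1 each at Itgax, Itgad, Itgal, Itga4, Itgb2 and Itgb3. The cause of these differences was not tested. The read depth behind the lists is unknown, so a region missing from a short list may be one that was not detectable at that depth.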
